A study of Mus musculus with 14 samples.

Results

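The 300 gene bodies with the highest H3K27me3 score were taken from a table of 22470 gene bodies of mouse tumor-derived cells. Symbols of mitochondrial genes and of predicted genes (those starting with Gm and a number or ending in Rik) were left out, and the remaining 19310 gene bodies were ranked by the score. The 300 thus made up 1.55% of the ranked gene bodies. They were chosen by the score itself, so their scores are a description and were not tested. The cells were of the C57BL/6 strain, were grown to passages 6 to 8, and carried either a guide RNA against Nsd3 (sgNSD3) or a control guide RNA (sgControl). RNA was measured in 3 libraries labelled sgNSD3 and 3 labelled sgControl. Chromatin was profiled by CUT&RUN, in which micrococcal nuclease frees the nucleosomes that an antibody has bound. Antibodies to H3K27me3 were used in 1 library per condition and to H3K36me2 in 2 libraries per condition, beside 1 library per condition titled as IgG control. The labels name neither the tumor nor a clone, and do not say if the 3 RNA libraries per condition stem from different cultures. The p-values below therefore cover the spread among libraries, which may be technical.

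H3K27me3, trimethylation of lysine 27 of histone H3, is written by Polycomb repressive complex 2 (PRC2) and is found over silent genes, classically those of developmental regulators and of other cell lineages whose promoters are rich in CG dinucleotides. H3K36me2, dimethylation of lysine 36, is written by NSD-family enzymes such as NSD3 over transcribed and intergenic chromatin, and H3K36 methylation hinders PRC2 on the same histone tail. Genes marked by H3K27me3 therefore usually carry little RNA.

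To show the kinds of promoter in the set, 300 bases around the listed promoter start of 6 members are printed below. They run from 250 bases before to 50 bases after that start. For Cadm3, Cbfa2t3 and Clstn2 this start lies inside the gene ends used for lengths and positions. They come from RefSeq (GRCm38.p6) and are written 5′ to 3′ on the gene's strand, with CG dinucleotides in capitals. The first 3 are the highest-scoring protein-coding members. Clstn2 and Vash1 are the called members with the largest RNA change on the authors' log2 scale among those in the RefSeq promoter table. Olfr452 is the highest-scoring odorant receptor and was added after its values were seen.
Cadm3 (chr1:173367646-173367945, minus strand): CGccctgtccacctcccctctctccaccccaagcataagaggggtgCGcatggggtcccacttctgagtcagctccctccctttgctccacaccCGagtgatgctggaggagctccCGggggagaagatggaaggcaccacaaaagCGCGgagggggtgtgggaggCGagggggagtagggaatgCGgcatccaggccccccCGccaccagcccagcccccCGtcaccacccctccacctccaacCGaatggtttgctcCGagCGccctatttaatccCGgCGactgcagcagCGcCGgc
Cbfa2t3 (chr8:122699060-122699359, minus strand): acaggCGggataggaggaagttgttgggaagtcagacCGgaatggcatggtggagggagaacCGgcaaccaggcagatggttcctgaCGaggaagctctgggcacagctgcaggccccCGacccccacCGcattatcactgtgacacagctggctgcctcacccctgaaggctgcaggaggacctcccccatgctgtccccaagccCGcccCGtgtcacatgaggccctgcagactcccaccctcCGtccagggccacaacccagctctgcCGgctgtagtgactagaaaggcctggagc
Mkrn3 (chr7:62420104-62420403, minus strand): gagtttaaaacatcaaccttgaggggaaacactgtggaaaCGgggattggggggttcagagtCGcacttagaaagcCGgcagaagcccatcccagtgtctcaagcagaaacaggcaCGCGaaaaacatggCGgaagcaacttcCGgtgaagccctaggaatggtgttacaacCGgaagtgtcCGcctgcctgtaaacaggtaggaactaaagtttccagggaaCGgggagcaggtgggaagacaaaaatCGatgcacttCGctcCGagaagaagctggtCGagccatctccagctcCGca
Clstn2 (chr9:98033118-98033417, minus strand): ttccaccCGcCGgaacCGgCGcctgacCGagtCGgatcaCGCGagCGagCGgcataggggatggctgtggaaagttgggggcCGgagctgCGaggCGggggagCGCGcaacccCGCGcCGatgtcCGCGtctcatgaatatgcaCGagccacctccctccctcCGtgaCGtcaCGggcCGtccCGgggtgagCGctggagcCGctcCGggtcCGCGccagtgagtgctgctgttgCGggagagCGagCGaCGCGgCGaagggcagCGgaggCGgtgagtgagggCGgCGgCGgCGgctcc
Vash1 (chr12:86678450-86678749, plus strand): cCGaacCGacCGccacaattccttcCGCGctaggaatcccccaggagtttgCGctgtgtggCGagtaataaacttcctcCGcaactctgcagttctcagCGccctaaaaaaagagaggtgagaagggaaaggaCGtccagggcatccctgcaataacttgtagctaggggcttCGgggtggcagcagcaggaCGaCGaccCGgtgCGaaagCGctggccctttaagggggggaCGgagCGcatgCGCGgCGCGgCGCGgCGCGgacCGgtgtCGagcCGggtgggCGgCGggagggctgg
Olfr452 (chr6:42789791-42790090, plus strand): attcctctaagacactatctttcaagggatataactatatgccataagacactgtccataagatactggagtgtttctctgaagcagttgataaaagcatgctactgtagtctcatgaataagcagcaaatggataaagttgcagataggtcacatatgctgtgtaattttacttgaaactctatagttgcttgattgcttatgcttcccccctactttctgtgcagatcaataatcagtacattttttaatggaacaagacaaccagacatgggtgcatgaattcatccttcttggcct

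These windows held 17, 10, 15, 43, 31 and 0 CG dinucleotides in the order printed. Clstn2 and Vash1, both with RNA in these cells, had the densest CG of the 6, and the odorant receptor had none.

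The scores in the authors' deposited table are signed numbers with no unit, and neither the formula nor the libraries behind them are given in the sources used here. Whether a score is a level of the mark or a difference is thus not known. A high score therefore cannot be read as more H3K27me3 in 1 condition, and no direction between sgNSD3 and sgControl was drawn from it. Among the members the score ran from 0.234 to 0.699 with a median of 0.291. The rest had a median of -0.0268, and 29.9% of the rest lay above 0. The lower edge of the set was not a break in the distribution. Just inside it lay Krt76 (0.236), Pth2 (0.235) and Crybb2 (0.234), and just outside it Gpr101, Slc26a7 and Ttc29, all at 0.234. Ugt1a6a and Ugt1a7c, which share most of their gene body, had the same score (0.310), and so did Htr1a and Spata22 (0.306).

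The highest score belonged to Cadm3, a neuronal cell adhesion protein, at 0.699. It was followed by Cbfa2t3, a transcriptional corepressor of blood cell development, at 0.582, and by Mkrn3, an imprinted makorin ring finger protein, at 0.562. Car10, a carbonic anhydrase-related protein of neurons, had 0.557, and Hba-a1, an adult alpha globin, had 0.553. The next were Insm1 (0.542), a zinc finger factor of neuroendocrine cells, and Bhlhe23 (0.530), a helix-loop-helix factor of neurons. Mpped1 had 0.528, the potassium channel gene Kcna2 0.493, Ccdc33 0.488, the transcription factor gene Sox14 0.482 and Cobl, an actin nucleator, 0.480. Several of these genes are thus known from neurons or blood cells rather than from mesenchymal cells.

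Most members carried little or no RNA. Of the 300, 298 had a row in the RNA table, and their levels are given as normalized counts recovered from the authors' log2 values. In all 6 libraries 109 members (36.6%) had 0 reads. A further 132 (44.3%) had a mean above 0 and below 8 normalized counts, 37 (12.4%) had 8 to below 100, 15 (5.03%) had 100 to below 1000 and 5 (1.68%) had 1000 or more. The share below 8 was thus 80.9% among the members and 34.4% among the rest of the ranked gene bodies with RNA (6495 of 18904). The median level was 0.321 normalized counts among members and 121.8 among the rest. Read the other way, 3.25% of the gene bodies without reads and 3.90% of those above 0 and below 8 were members, against 0.131% of those at 1000 or more. These are RNA levels of the same cell population, in which fewer cells of a type and less RNA per cell cannot be told apart.

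**Figure D1:**
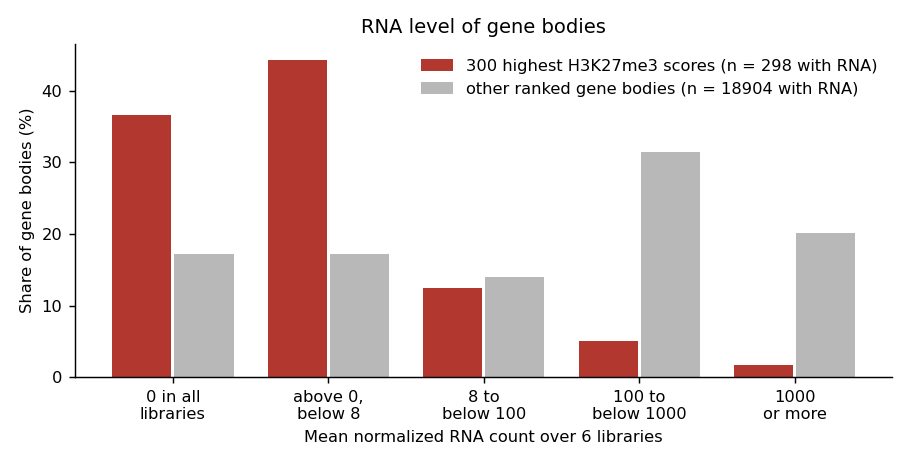
Share of gene bodies (y axis, percent) by mean normalized RNA count over the 6 libraries (x axis), for the 300 highest H3K27me3 scores (red) and the other ranked gene bodies (grey). The members lie mainly in the 2 lowest levels, with 36.6% at 0 reads and 44.3% above 0 and below 8.

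Cadm3 and Cbfa2t3 show what these low levels look like by library. Cadm3 had 0, 0.959 and 0 normalized counts in the libraries labelled sgNSD3, and 5.22, 2.87 and 4.06 in sgControl. The conditions did not overlap, but the gene lay below the minimum for the test, and 1 normalized count is about 1 read. Cbfa2t3 had 4.13, 7.67 and 8.80 normalized counts in sgNSD3, and 11.5, 5.74 and 15.2 in sgControl. These ranges overlapped, and the gene did not pass the test (limma adjusted p = 0.402). Hba-a1, Bhlhe23, Mpped1 and Sox14 had 0 reads in every library.

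Taken as a sum, the 241 members below 8 normalized counts held 150, 178 and 190 normalized counts in the libraries labelled sgNSD3 and 201, 206 and 215 in sgControl, with no overlap. The 6493 other low genes summed to 6401, 6308 and 6252 normalized counts in sgNSD3 and to 6431, 6442 and 6464 in sgControl, also with no overlap. The mean sum was 16.7% lower in sgNSD3 for the members and 1.95% lower for the other low genes. Of the 241 members, 109 had 0 reads in every library, so the sum rests on the others. Single genes differed in both directions. Pcdh17 had means of 2.25 in sgNSD3 and 9.15 in sgControl, and Crmp1 1.65 and 8.04. Col6a5 went the other way, with 5.23 in sgNSD3 and 1.01 in sgControl. The sum therefore need not describe a typical member, and no test was made of these sums.

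A minority of members did carry RNA. Syn3, a synaptic vesicle protein, had a mean of 33499 normalized counts, but Timp3, a metalloprotease inhibitor gene with a mean of 85157 normalized counts, lies within Syn3 on chromosome 10. The sources used here do not give whether the counting used strand, so the level of Syn3 is uncertain. Grb10, an imprinted adaptor of insulin and growth factor receptors, had a mean of 8015. It had 7981, 8090 and 8236 normalized counts in sgNSD3 and 7997, 7896 and 7889 in sgControl, which overlapped. Stard13 had a mean of 2178, Gmps, an enzyme of guanine nucleotide synthesis, 1500, Tmem39a 1365 and the splicing factor gene Smu1 982. Ugt1a7c had a mean of 910.5, Psd 688.7, the beta-tubulin gene Tubb4a 624.0 and Dsel 461.9. Of the 57 members that could be tested, 18 overlapped another gene with RNA, by 8 to 123998 bases at the longest, so part of the reads of some may belong to that gene.

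By role, the members were spread over many gene families, assigned here from gene symbols. The largest named families were odorant, vomeronasal and taste receptors with 20 members and homeobox and developmental transcription factors with 17. Chemosensory receptors, 6.67% of the 300, were 1% of the 300 highest among gene bodies of at least 2000 bases. Ion channels and immune receptors had 13 each, and other G protein-coupled receptors 11. The 11 include Gprin1, which is not itself a receptor, and a rule on symbols can also miss genes, so family shares are approximate. No family was assigned to 179 members. Against the 1.55% of all ranked gene bodies, 4.57% of 372 developmental transcription factor genes were members, 4.83% of 269 ion channel genes, 4.18% of 263 other G protein-coupled receptor genes and 3.94% of 330 immune receptor genes. Cadherins had 4 of 59 (6.78%). The chemosensory receptors, with 20 of 1469 (1.36%), were close to the overall share, and zinc finger proteins (1 of 436) and histones (0 of 84) were below it. These shares are descriptions, since the score that made the set also ranks the families.

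The transcription factors among the members were mostly lineage regulators of neurons, sense organs and blood. They were led by Bhlhe23 (0.530) and Sox14 (0.482), then Neurod2 (0.414), which drives cortical neuron differentiation, and Onecut1 (0.403), a liver and pancreas factor. Pax1, Pax5, Vax2, Pou4f3, Atoh1, Hmx1, Satb1, Sox1, Gsx1, Gbx1, Pou4f2 and Pax4 were also members. Of the 17 members of the family, 14 had RNA below 8 normalized counts and 10 had 0 reads. The family was wide at both ends of the score: its median was -0.0460, below that of all ranked gene bodies (-0.0266), and 33 of its 372 genes (8.87%) were among the 300 lowest scores.

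HOX genes were absent from the set, and a few other classical Polycomb targets were in it. Of 38 ranked HOX genes, which pattern the body axis, 0 were members. Their median score was -0.0913, and the best placed, Hoxa7, ranked 5039th of the 19310 at 0.0155. Since the score is not known to be a level, a low score need not mean absence of the mark. Of 52 other developmental regulators known as Polycomb targets, 3 (5.77%, against 1.55% of all ranked gene bodies) were members, namely Shh (0.329), Pax5 (0.328) and Sox1 (0.267), and 6 were among the 300 lowest. Of the HOX genes with RNA, 29 of 39 reached 8 normalized counts.

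Genes for secreted signals, channels and receptors were also present. The secreted signals were Bmp2, Shh and Ntng1. The channels were led by Kcna2 (0.493) and Cacna1i (0.475), a low-voltage calcium channel, and the receptors by Gpr37 (0.459), Adra2c (0.434), an adrenergic receptor, and Hrh3 (0.373), a histamine receptor. Of the 13 channel genes 12 had RNA below 8 normalized counts, and Chrnb2, a nicotinic acetylcholine receptor subunit, was the exception at 200.7. In a list of 57 ranked genes of transmitter synthesis and the synapse, drawn up after the members were seen, 14 (24.6%) were members, among them Srcin1 (0.472), Th (0.325), which makes dopamine precursors, and Gad1 (0.305), which makes GABA. In a list of 41 neuropeptides and hormones, drawn up likewise, 7 (17.1%) were members, all with RNA below 8 normalized counts.

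Genes of germ cells, lymphocytes and imprinted loci formed further groups, in lists drawn up after the members were seen, so their counts are descriptions only. Of 65 ranked genes of meiosis and germ cells, 11 (16.9%) were members, including Gtf2a1l (0.478), a germ cell subunit of a general transcription factor, Dazl (0.423), an RNA-binding protein of germ cells, and Mael (0.392), of the piRNA pathway. Of 37 T and B cell genes, 10 (27.03%) were members, including Slamf6 (0.371), Cd3d (0.319) and Cd3g (0.239), the last 2 being chains of the T cell receptor complex. All 10 lay below 8 normalized counts, and 5 had 0 reads. Of 60 imprinted genes, 6 (10%) were members: Mkrn3, Cobl, Slc22a3, Grb10, Th and Calcr. Of 48 genes of motile cilia, 6 (12.5%) were members, led by Gas2l2 (0.425).

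Promoters were set beside RNA level because H3K27me3 is known for CG-rich promoters of silent genes. A promoter window was found for 225 members. It was called CpG-rich where GC content was at least 50% and the observed to expected ratio of CG dinucleotides at least 0.6. By this measure 40% of members and 50% of the rest were CpG-rich, and within RNA levels the order differed. Below 8 normalized counts, 37.4% of 182 members were CpG-rich and 13.9% of 5098 others. At 8 or more, 51.2% of 43 members were CpG-rich and 68.6% of 9915 others. Put as shares of the classes, the members held 68 of 778 (8.74%) low-RNA genes with a CpG-rich promoter and 114 of 4502 (2.53%) low-RNA genes without one. The same CpG-rich low-RNA class also gave 36 (4.63%) of its genes to the 300 lowest scores, so it was spread towards both ends.

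**Figure D2:**
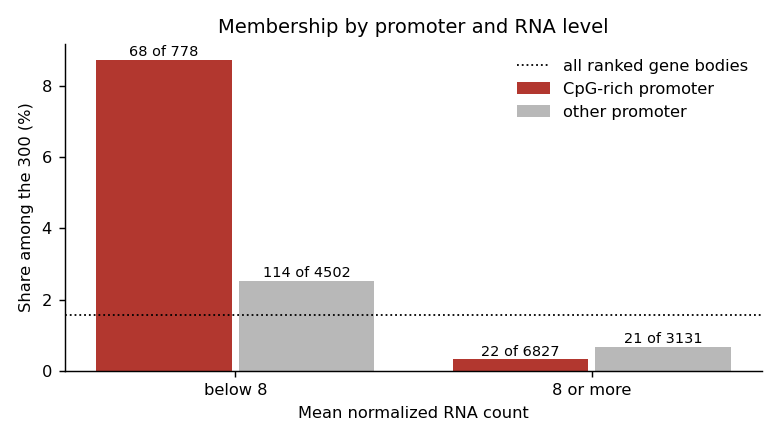
Share of gene bodies that were among the 300 highest H3K27me3 scores (y axis, percent) by mean normalized RNA count (x axis), for CpG-rich promoters (red) and other promoters (grey), with the overall share as a dotted line. The share was highest, 8.74%, for CpG-rich promoters with RNA below 8 normalized counts.

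The families differed in their promoters. Of 12 transcription factor members with a window, 10 (83.3%) were CpG-rich, against 51.8% of 253 other genes of that family. Of 12 chemosensory members 0 were, and of the other 1242 chemosensory genes 0.0805% were. The letters GGGCGG or CCGCCC, the GC box on either strand, occurred in 44.4% of member windows, 50.1% of the rest and 35.9% of all 27025 windows of the table. TATAAA, or its reverse complement TTTATA, occurred in 11.1% of member windows, 12.7% of the rest and 14.2% of all windows. None of these matches shows that a factor binds there.

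The gene bodies of the members were longer than the rest. Their median length was 25471 bases against 18574 bases, and 25.5% of members spanned at least 100000 bases against 11.8% of the rest. With ranked gene bodies split by length into 4 equal parts, 113 (2.36%) of the longest were members, against 1.251% to 1.313% in the other parts. By position, 39 members lay on chromosome 2 (2.39% of its ranked gene bodies) and 28 on chromosome 1 (2.59%), against 10 on chromosome 7 (0.551%) and 2 on the X chromosome (0.282%). Next to each other in the ranked order along a chromosome lay 34 members, in 17 pairs and in no longer run. Among the pairs were Grb10 with Cobl on chromosome 11, Cd3g with Cd3d on chromosome 9, Cd84 with Slamf6 on chromosome 1, Adra2c with Hmx1 on chromosome 5 and Fermt1 with Bmp2 on chromosome 2.

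The H3K36me2 scores of the same gene bodies were close to those of other gene bodies, and they too may be levels or differences. The table holds a pair of H3K36me2 columns, which are signed scores of the authors' deposited table with no library named, and no test between conditions was possible. In the first column the median was 0.0645 in members and 0.0773 in the rest. In the second it was 0.121 in members and 0.132 in the rest. Both columns were mostly positive, with 90.3% and 95.0% of members above 0, against 92.2% and 95.2% of the rest. Between the lower and upper quartile the members ran from 0.0356 to 0.101 in the first column and from 0.0711 to 0.170 in the second, so the differences in median were small beside the spread of gene bodies.

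The order of the medians changed with RNA level and, at 8 or more normalized counts, with the column. Among gene bodies with 0 reads, members had medians of 0.0644 and 0.113 and the rest 0.0520 and 0.0921, so members were the higher in both columns. Among those above 0 and below 8 normalized counts, members had 0.0649 and 0.112 and the rest 0.0775 and 0.134, so members were the lower in both. At 8 to below 100, members had 0.0669 and 0.144 and the rest 0.0782 and 0.134. There, and at each higher level, members were the lower in the first column and the higher in the second. Across the members the columns ranked gene bodies differently (Spearman correlation 0.086 over 300 gene bodies, and 0.150 over all ranked gene bodies with values in both), so a single member's H3K36me2 value is uncertain.

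**Figure D3:**
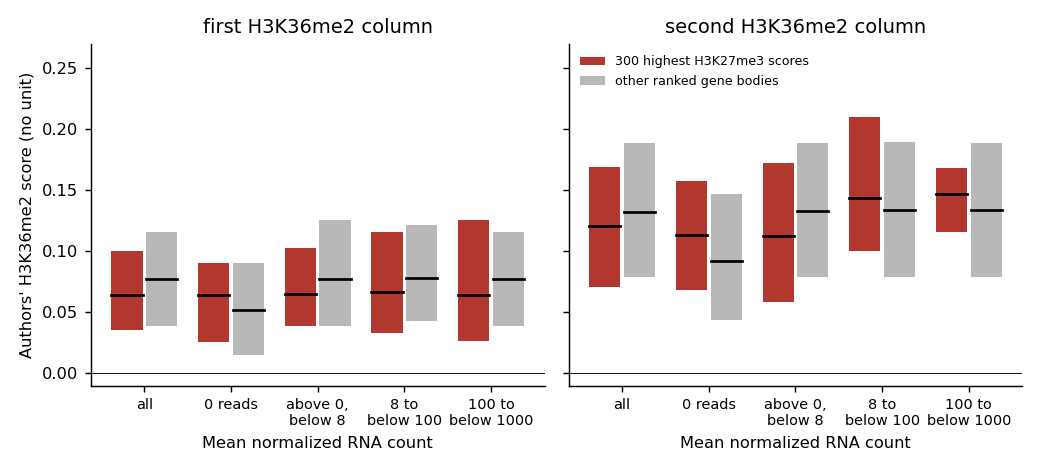
The authors' H3K36me2 scores (y axis, no unit) in the first (left) and second (right) column by mean normalized RNA count (x axis), with boxes from the lower to the upper quartile and a black line at the median, for the 300 highest H3K27me3 scores (red) and the other ranked gene bodies (grey). The boxes overlap at every level, and with 0 reads the members' medians, 0.0644 and 0.113, lie above those of the rest, 0.0520 and 0.0921.

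The highest H3K36me2 score among members, by the mean of both columns, was at Ugt1a6a (0.347 and 0.483) and Ugt1a7c (0.310 and 0.483), overlapping genes for glucuronosyltransferases. Stard13 came next, with 0.0478 in the first column and 0.503 in the second, followed by Sdsl and Alox8. The lowest was at Th, with -0.127 and 0.0586, followed by the odorant receptors Olfr437 and Olfr285, the F-box gene Fbxl15 and Olfr905. Below 0 in both columns were 2 of 300 members (0.667%) and 108 of 19010 others (0.568%).

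Nsd3, the gene that the guide RNA targets, had 1.51-fold more RNA in sgNSD3 by label, with no overlap between the conditions. Whether the gene was edited, and whether the labels are right, was not tested. Nsd3 had 21989, 22012 and 21837 normalized counts in the libraries labelled sgNSD3 and 14568, 14402 and 14675 in sgControl, a log2 fold of 0.59 ± 0.025 (SE, limma adjusted p = 5.86e-14). Each direction below therefore rests on the labels. Recovered totals were 20294828 to 21863833 counts per library. The sgNSD3 libraries were more alike than the sgControl libraries (chi-square over genes, divided by its degrees of freedom, of 1.33 to 1.46 among sgNSD3 pairs and 2.91 to 9.95 among sgControl pairs). Pairs across the conditions gave 7.39 to 8.32, within the range of the sgControl pairs. Among the sgControl replicates, replicate 1 stood apart from the others. The summed markers of mesenchymal cells were 1223250 to 1231820 normalized counts in sgNSD3 and 1080060 to 1165700 in sgControl, with 3 of 9 called higher. Fn1 and Col1a1 carried the higher sum, and Col1a2 was at 277056 to 282639 in sgNSD3 and 284251 to 317621 in sgControl. Epithelial markers summed to 3077 to 3111 in sgNSD3 and 4265 to 4827 in sgControl, with 3 of 9 called lower and Epcam at 0. Most of this sum was Krt19, at 2650 to 2706 in sgNSD3 and 3708 to 4226 in sgControl. Trp63 and Sox2, both below 8 normalized counts, went the other way and were higher in every sgNSD3 library. Endothelial markers summed to 197.4 to 236.8 in sgNSD3 and 119.8 to 144.5 in sgControl (1 of 4 called higher), and neural markers to 1442 to 1519 in sgNSD3 and 1355 to 1386 in sgControl (1 of 4 called higher). Most of the endothelial sum was Kdr, at 174.7 to 208.1 in sgNSD3 and 102.5 to 124.4 in sgControl. Immune markers summed to 8.80 to 13.4 in sgNSD3 and 16.2 to 22.01 in sgControl, with Cd3e and Adgre1 at 0. Most of that sum was Lyz2, at 6.84 to 12.4 in sgNSD3 and 14.2 to 20.1 in sgControl. All 5 erythroid markers were at 0. The part of these differences in the results below was not tested.

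Most members could not be compared between conditions, because 241 lay below a mean of 8 normalized counts, the minimum for the test. Of 57 tested members 11 were called, with 7 higher and 4 lower in sgNSD3 by label (limma, adjusted p below 0.05). Over all 18263 tested genes 11.9% were called, 5.44% higher and 6.44% lower. The tested members' share, 19.3%, was therefore above that background, but it rests on 11 genes. By level, 6 of 37 members at 8 to below 100 normalized counts were called, where 5.92% of all genes at that level were, and 5 of 15 at 100 to below 1000, where 11.8% were. At 1000 or more 0 of 5 were called, where 22.8% of genes were. The conditions did not overlap in 20 of the 57, against 28.5% of all tested genes, and 17 (29.8%) had an unadjusted p below 0.05, against 24.7% of all tested genes. The median log2 fold was -0.02 among tested members and 0.00 among all tested genes, with 26 members above 0 and 31 below. Leaving out sgNSD3 replicate 1 or 2 left 4 members higher and 3 lower, and leaving out sgControl replicate 2 left 3 higher and 4 lower. Without sgControl replicate 1, 5 were higher and 6 lower.

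**Figure D4:**
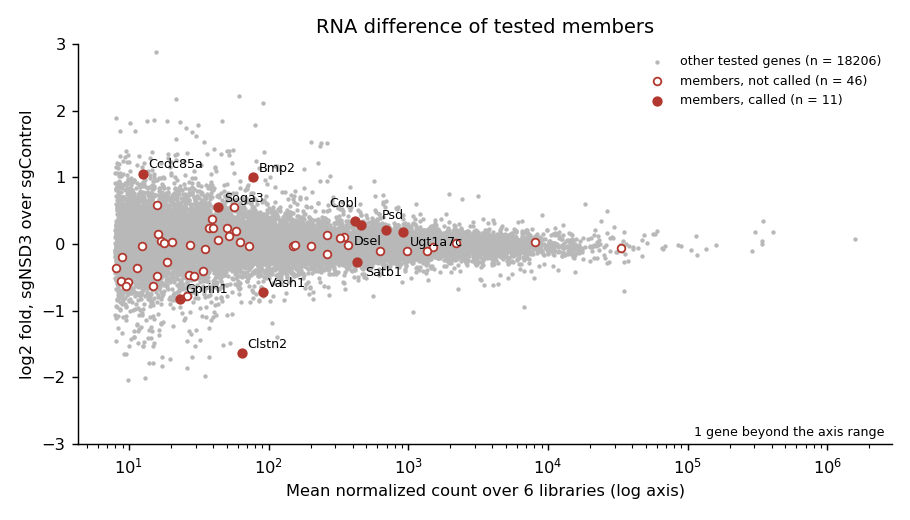
Log2 fold of sgNSD3 over sgControl (y axis, on log2(normalized count + 1)) against mean normalized count (x axis, log scale) for tested genes, with called members as filled red points, other tested members as open red points and other genes in grey. The called members lie on both sides of 0, from Clstn2 at -1.63 to Ccdc85a at 1.06.

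Among the called members, Bmp2, a secreted bone morphogenetic protein (chromosome 2, 133552159 to 133562896, GRCm38.p6), had 84.7, 105.5 and 122.2 normalized counts in the libraries labelled sgNSD3 and 51.2, 54.5 and 47.7 in sgControl. Every sgNSD3 library was above every sgControl library. The means were 104.1 ± 18.8 in sgNSD3 and 51.1 ± 3.42 in sgControl (SD, n = 3 each), a 2.04-fold difference with a log2 fold of 1.00 ± 0.15 (SE, limma adjusted p = 6.67e-05).

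Clstn2, a calsyntenin of synapses (chromosome 9, 97444395 to 98033373), showed the largest fall. It had 32.04, 25.9 and 33.2 normalized counts in sgNSD3 and 97.1, 120.6 and 75.1 in sgControl, with no overlap. The log2 fold was -1.63 ± 0.18 (SE, limma adjusted p = 8.57e-07), and the mean was 3.21-fold lower. The noncoding gene 4921534H16Rik, which lies within Clstn2, was also lower, at 7.53 normalized counts in sgNSD3 and 22.5 in sgControl (limma adjusted p = 0.00139). The overlap was taken from gene starts and ends, and whether exons or reads are shared was not tested.

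Cobl, the actin nucleator that ranked 12th by H3K27me3, had 444.4, 488.1 and 456.5 normalized counts in sgNSD3 and 365.6, 364.6 and 366.4 in sgControl. It was thus 1.27-fold higher with no overlap (log2 fold 0.34 ± 0.064 SE, limma adjusted p = 0.000747). Its neighbour Grb10, also a member, differed by 0.03 ± 0.027 (log2 fold, SE) and was not called. Dsel, a dermatan sulfate epimerase-like protein, had 524.0, 495.7 and 502.5 normalized counts in sgNSD3 and 407.4, 411.5 and 430.3 in sgControl, and was 1.22-fold higher (limma adjusted p = 0.00244).

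Vash1, vasohibin, a tubulin carboxypeptidase and inhibitor of vessel growth (chromosome 12, 86678700 to 86695688), had 70.3, 66.2 and 67.5 normalized counts in sgNSD3 and 112.8, 121.5 and 104.5 in sgControl. It was 1.66-fold lower with no overlap (log2 fold -0.72 ± 0.13 SE, limma adjusted p = 0.000412). Satb1, a chromatin organiser of T cells and neurons, had 394.8, 395.0 and 385.2 normalized counts in sgNSD3 and 458.6, 462.2 and 497.3 in sgControl, and was 1.21-fold lower (limma adjusted p = 0.00533).

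The other called members lay nearer to the threshold. Ccdc85a was 2.27-fold higher, at 17.5 ± 5.01 normalized counts in sgNSD3 and 7.71 ± 1.27 in sgControl (SD, n = 3 each, limma adjusted p = 0.0311). Soga3 was 1.49-fold higher (limma adjusted p = 0.0425), Psd, an exchange factor for ARF GTPases, 1.15-fold (0.0179) and Ugt1a7c 1.13-fold (0.0149). Gprin1, a neurite outgrowth protein, was 1.77-fold lower, at 16.7 ± 5.57 in sgNSD3 and 29.6 ± 5.78 in sgControl (limma adjusted p = 0.0445). Each of these 5 lost the call when some single libraries were left out. The limma adjusted p of Soga3 was 0.0618 to 0.185 without any 1 of the 6 libraries. That of Psd was 0.0664 to 0.0938 without replicate 2 or 3 of either condition, and that of Ugt1a7c 0.0616 to 0.106 without sgNSD3 replicate 1 or 3 or sgControl replicate 2. That of Ccdc85a was 0.0674 to 0.143 without replicate 1 or 2 of either condition, and that of Gprin1 0.115 to 0.236 without sgNSD3 replicate 1 or 2 or sgControl replicate 1 or 3. Psd overlaps Nfkb2 and Soga3 overlaps 9330159F19Rik, neither of which was called. Ugt1a7c shares its last exons with the other Ugt1a genes, so reads of that locus could be divided among them. Of the 12 genes with RNA that overlap it, 6 were called higher and 0 lower, where 5.44% of all tested genes were called higher. The only Ugt1a gene among the 6 was Ugt1a1, at 77.2 normalized counts in sgNSD3 and 36.8 in sgControl (limma adjusted p = 6.98e-05). The others were Dnajb3 and the pseudogenes Gm15374, Gm15371, Gm15368 and Gm15376. Ugt1a8, Ugt1a6b, Ugt1a6a, Ugt1a5 and Ugt1a2 were not called.

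**Figure D5:**
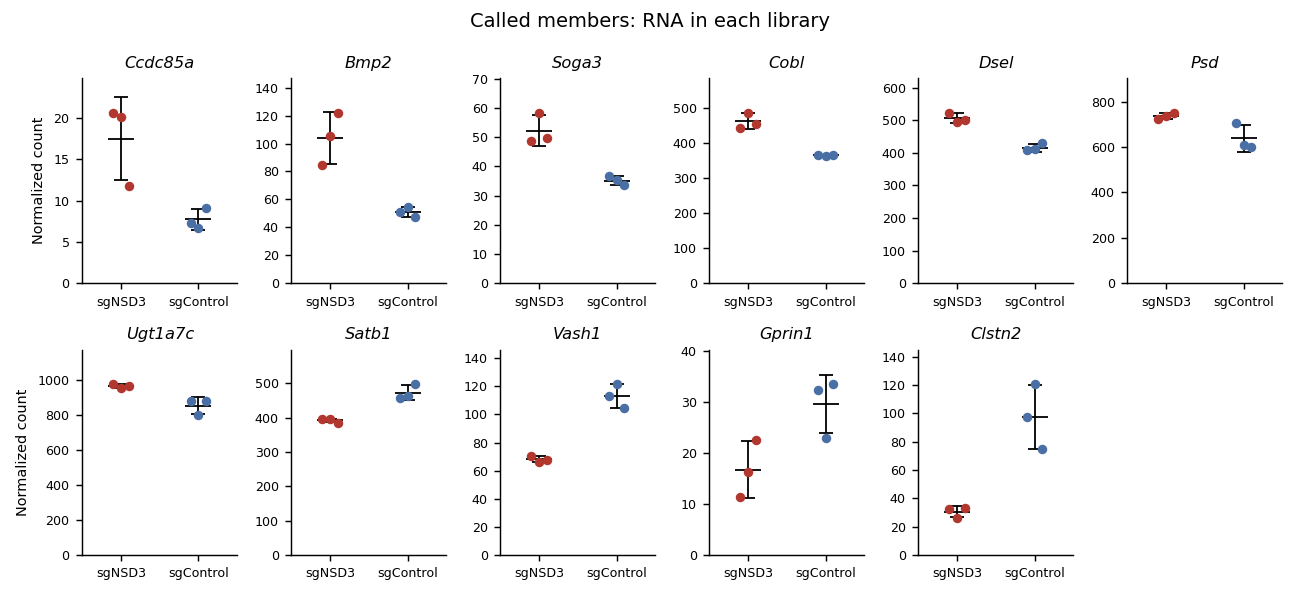
Normalized RNA counts (y axes, from 0) of the 11 called members in each library, sgNSD3 in red and sgControl in blue, with mean and SD bars (n = 3 each). Panels run from the largest log2 rise, Ccdc85a, to the largest fall, Clstn2, and in all panels the conditions do not overlap.

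RNA of the enzymes that write and erase the mark was measured in the same libraries. Of 16 tested genes of PRC2 and the H3K27 demethylases, 3 were called higher and 0 lower, where 5.44% of all tested genes were called higher, so the count rests on few genes. Phf19, a PRC2 accessory protein, had 18.6, 22.1 and 17.6 normalized counts in sgNSD3 and 9.40, 10.5 and 7.10 in sgControl, a 2.15-fold difference (limma adjusted p = 0.0211). Suz12, a core subunit of PRC2, was 1.10-fold higher (limma adjusted p = 0.0369) and Kdm6b, a demethylase, 1.08-fold (limma adjusted p = 0.0243). Whether these 3 calls hold without single libraries was not examined. Ezh2, the catalytic subunit, was not called, at 486.3 ± 32.02 in sgNSD3 and 505.5 ± 7.30 in sgControl (SD, n = 3 each). None of the 15 ranked gene bodies of this list was among the 300, and the best placed was Ezh1, ranked 1065th.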

How the data were processed

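RNA and chromatin samples of the 2 conditions were analysed from the authors' processed tables. HISAT2, featureCounts and DESeq2 with the mm10 build are named, per the submitters' processing notes, without versions or roles. The RNA values were deposited by the authors on a log2 scale with a floor of 8.45 for 0 reads. Inverting the variance-stabilising transformation gave normalized counts that were whole multiples of 1 step per library in 100% of values (tolerance 0.05). The chromatin values are a signed score per gene body deposited by the authors, with no unit or formula, and no test was made on them. For the IgG samples no value was analysed here.

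The RNA test was limma (version 3.58.1, R 4.3.3, trended eBayes) on the deposited log2 values, for 18263 of 55433 genes with a mean of at least 8 normalized counts, with Benjamini-Hochberg adjustment. A fold is the ratio of the condition means in normalized counts, and a log2 fold is on log2(normalized count + 1), which understates changes of low genes. The test was checked on simulated data.

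Replicate numbers follow the sample titles; the sgNSD3 columns bear other numbers. Same-numbered libraries did not deviate together, so no block was used. Symbols were matched directly (292 members) or through RefSeq synonyms (6), and lengths and positions came from RefSeq GRCm38.p6. The members and lists were chosen with earlier results of these data known. Named genes were the 12 highest scores, the 3 scores on each side of the edge, leading members of each family, the 10 highest RNA levels, all called members, the extremes of H3K36me2, Nsd3 and called PRC2 genes; others named were chosen after their values were seen. Alternatives covered scaling, filter, pseudocount, voom, block, single libraries and set size. A member of a named family is not reported here.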

Additional observations from a re-analysis of the deposited data

How the results depend on the processing

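The directions of all 11 called members were kept in all 152 combinations of member and alternative, and the call was kept in 122; Bmp2, Cobl, Dsel, Clstn2, Vash1 and Satb1 kept it in all, and Psd, Soga3, Ugt1a7c, Ccdc85a and Gprin1 lost it in 30. Leaving out 1 library at a time gave 3 to 6 members higher and 3 to 6 lower, and 641 to 993 genes higher and 707 to 1164 lower over the whole table. Counts moved by over 1.5 times without sgNSD3 replicate 1 (4 members higher, 645 genes higher, 707 lower), replicate 2 (4, 641, 727) and, over the whole table, replicate 3 (658, 774), and without sgControl replicate 2 (3 members higher). Without sgControl replicate 1, the library that stood apart, 5 members were higher and 6 lower. Cadm3 and Pcdh17 were called lower only when the filter on low values was dropped (5 members higher, 5 lower). The 100 highest scores held 25 tested genes, 4 called higher and 0 lower (16% called), and the 600 highest 116, with 11 higher and 8 lower (16.4%), against 11.9% of all tested genes. Members below 8 normalized counts made up 74.7% of the 100 highest, and a CpG-rich promoter was found for 51.4% of them. Among gene bodies of at least 2000 bases, chemosensory receptors were 1% of the 300 highest. The medians of both H3K36me2 columns stayed within 10% of their values, the developmental transcription factor share was 3.83% to 6%, and Nsd3 kept its call under all its alternatives.

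Same-numbered libraries correlated at 0.046, 0.016 and -0.013 by the title numbers and at -0.066, -0.0065 and -0.040 by the column numbers, in deviations from the condition means. With a replicate block by title numbers 8 members were higher and 4 lower (1119 and 1333 over the whole table), and by column numbers 7 and 3 (919 and 1086). The filter of 8 normalized counts left 57 members for the test, and the chromatin scores have no replicate values.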
